A study of Mus musculus with 2 samples.

Results

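B cells of the mouse pituitary were described from droplet-based 3' single-cell RNA sequencing of old (20 months) and young (2 months) male C57BL/6 mice. Glands were dissociated, red cells were lysed, and 10 glands of each age were pooled into 1 library, so single animals cannot be told apart. The labels give both ages the same strain and sex and name no treatment. Values are unique molecular identifiers (UMIs), the count of distinct RNA molecules per gene and cell barcode. Barcodes were kept with at least 2000 UMIs, 500 genes and at most 15% of UMIs from mitochondrial genes. A kept barcode was a member when Cd79a, Cd79b and Ms4a1 together reached 4 UMIs, the Cd3 genes Cd3d, Cd3e and Cd3g of T cells gave at most 1 and the complement genes C1qa, C1qb and C1qc of macrophages gave at most 5. This rule found 97 old members among 9783 kept barcodes and 161 young members among 9210, or 258 of 18993 in all. A single library stands for each age, so no difference between the ages was open to a test. Every interval below is an exact 95% interval that covers counting error only, not the spread between animals.

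B cells make antibody. Each assembles 1 heavy chain and 1 kappa or lambda light chain, holds them at the surface as a receptor with the signalling pair encoded by Cd79a and Cd79b, and presents captured antigen on MHC class II molecules. A naive B cell carries IgM and IgD, and after activation it may switch to IgG, IgA or IgE and become a plasma cell that secretes antibody. Hormone cells make up most of the pituitary and lymphocytes a small minority. B cells left in its vessels and B cells of the tissue cannot be told apart in a dissociated gland.

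The whole old library held 138427393 UMIs and the whole young library 154510099. No member barcode occurred in both libraries, although 31 kept barcodes did. Free RNA differed between the libraries, in a direction that depended on the barcodes taken. Barcodes of at most 100 UMIs held 26933036 UMIs in the old library and 4237840 in the young library. Barcodes of 500 to 900 UMIs, taken separately as free RNA, held 11577567 UMIs in the old library and 40596018 in the young library. Igkc, the kappa constant gene, stood at 3107 CPM in old and 28.6 CPM in young barcodes of at most 100 UMIs. CPM, the usual scaling of a gene's UMIs to the library total, was taken here after 7 hormone and 13 mitochondrial genes were left out.

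The members were of 3 kinds, and the label B cell did not hold for all of them. The split was made after their values were seen, by the share of UMIs from 4 class II genes (Cd74, H2-Aa, H2-Ab1 and H2-Eb1, limit 0.1%) and by UMI totals (limit 10000). Among members above the class II limit, young totals had a gap from 7262 to 14580 UMIs. Old totals had no such gap and ran 8060, 9658, 9746 and 11507. The old barcodes of 9746 and 9658 UMIs had class II shares of 0.400% and 0.249%. Kept barcodes that were not members had a median class II share of 0.277% in the old library and 0.0% in the young library. The limit of 0.1% thus set members apart less well in the old library. The first kind, called B cell barcodes below, held 75 old and 120 young members, with a median of 4057 UMIs and 1499 genes in the old library and 2924.5 UMIs and 1079.5 genes in the young library. Class II genes made up 0.249% to 3.24% of their UMIs in the old library, median 1.94%, and 0.695% to 3.49% in the young library, median 2.07%. A light chain UMI was found in all 75 old and all 120 young ones. It was also found in 7749 of 9686 kept old barcodes that were not members, and in 172 of 9049 such young ones.

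The second kind, 13 old and 35 young class II-poor members, did not carry a B cell profile. Their median was 24323 UMIs in the old library and 24483 in the young library, and hormone genes made up a median of 40.4% and 48.1% of those UMIs, old and young. No old and 2 young ones had a UMI of Ptprc (CD45), the surface phosphatase of leukocytes, and 6 old and 2 young ones had a light chain UMI. In 7 old and 28 young ones every rule UMI came from Cd79b. They nevertheless held 42.5% of all member UMIs in the old library and 67.2% in the young library. One young barcode of 50251 UMIs lay just under the class II limit at 0.0716%, with 37 Igkc UMIs and 18 of Cd74.

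The third kind, 9 old and 6 young large class II-positive members, held 11507 to 27088 UMIs in the old library and 14580 to 26955 in the young library. Several carried genes of another cell type beside those of B cells, among them Gh (growth hormone) with 8252 UMIs in 1 old and 16102 UMIs in 1 young barcode, Chga (chromogranin A) with 1019 UMIs and Cck (cholecystokinin) with 188 in an old one, Flt1 and Plvap of endothelial cells with 48 and 45 in another old one, and Pomc with 1312 in a young one. Of these large members 0 of 9 old and 4 of 6 young ones were among the barcodes with the highest Scrublet doublet scores, removed in an alternative, against 7 of 75 old and 4 of 120 young B cell barcodes. Because the other kinds differ in this way, gene values below are for the B cell barcodes unless all members are named.

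**Figure D1:**
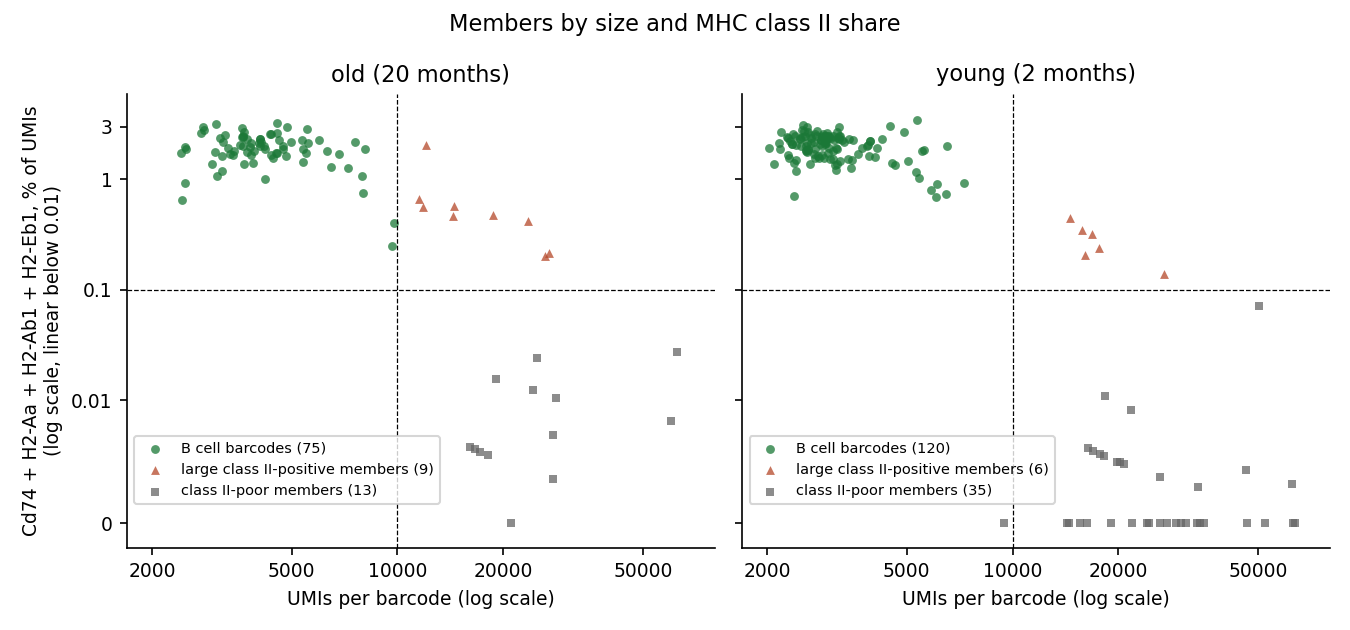
Each point is 1 member; the x axis gives its UMIs (log scale), the y axis the percent of UMIs from Cd74, H2-Aa, H2-Ab1 and H2-Eb1 (log scale, linear below 0.01), with the old library on the left and the young library on the right, and dashed lines mark 10000 UMIs and 0.1%. The 75 old and 120 young B cell barcodes form the group at upper left, and the 13 old and 35 young class II-poor members lie below 0.1%.

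At the rule's limit the kinds were mixed. Of barcodes with exactly 4 rule UMIs, 4 of 9 old and 4 of 24 young ones were class II-positive. Just outside, at 3 rule UMIs, 7 of 29 old and 3 of 45 young barcodes were. At 1 rule UMI, 718 of 965 old and 9 of 600 young barcodes were, so passing the class II limit means less in the old library. The Cd3 limit kept out 6 old and 3 young barcodes, and the C1q limit 8 old and 5 young ones.

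Genes that set B cell barcodes apart from all other kept barcodes were those of the B lineage. This is a description, since the barcodes were chosen on 3 of these genes. Pax5, the transcription factor that holds B cells in their lineage, stood at 263 CPM in old B cell barcodes against 0.872 CPM in other old kept barcodes, and at 215 CPM in young B cell barcodes against 0.178 CPM in other young ones. It led the order by the lower of the folds of the 2 libraries, at 302. After Pax5 and the rule gene Ms4a1 (CD20) came Fcer2a (CD23, the low-affinity IgE receptor), Bank1 (a scaffold of receptor signalling), Blk (a Src family kinase of B cells), B3gnt5, Tnfrsf13c (the BAFF receptor, which keeps B cells alive), Pou2af1 (a coactivator of octamer-binding factors), Fcmr (the IgM Fc receptor) and Cxcr5 (the follicle-homing chemokine receptor). Btla, Fcrla, Ebf1, Siglecg, Ly6d, Vpreb3, Cd79a, Ccr7 and Irf4 were also among the 20 leading genes.

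The stretches upstream of 3 of these genes are shown because they are the control regions of a rule gene and of the leading genes that held a motif searched. They are RefSeq sequences of build GRCm38.p6, given 5′ to 3′ on the gene's strand, 250 bases up to the base before the annotated start. Cd79a is at chr7:24897247-24897496 on the plus strand, Vpreb3 at chr10:75948050-75948299 on the plus strand and Bank1 at chr3:136326067-136326316 on the minus strand. Capitals mark a match to the octamer ATGCAAAT, bound by Pou2f factors, or to CCCNNGGG, the centre of the palindrome bound by early B cell factor, each searched on both strands.
Cd79a: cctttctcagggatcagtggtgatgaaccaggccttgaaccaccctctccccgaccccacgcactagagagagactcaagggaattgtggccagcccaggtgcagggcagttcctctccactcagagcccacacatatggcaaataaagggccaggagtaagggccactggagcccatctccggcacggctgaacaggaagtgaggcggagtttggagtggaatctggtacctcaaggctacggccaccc
Vpreb3: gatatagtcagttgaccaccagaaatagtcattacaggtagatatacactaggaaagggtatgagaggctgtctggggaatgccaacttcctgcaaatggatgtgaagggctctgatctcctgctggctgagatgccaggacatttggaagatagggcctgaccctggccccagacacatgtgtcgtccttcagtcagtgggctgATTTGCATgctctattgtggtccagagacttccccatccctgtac
Bank1: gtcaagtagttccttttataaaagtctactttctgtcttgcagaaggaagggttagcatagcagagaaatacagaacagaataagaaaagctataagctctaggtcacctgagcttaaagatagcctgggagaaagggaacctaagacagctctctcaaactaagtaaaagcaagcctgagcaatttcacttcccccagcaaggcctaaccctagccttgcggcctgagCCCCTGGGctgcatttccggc
The octamer was in 1 of 14 matched genes (18 promoters of 21 rule and leading genes sought), in Vpreb3 at position -45 from the start, and in 526 of all 32851 promoters of the same length (1.60%). CCCNNGGG was in 1 of the 14, in Bank1 at position -21, and in 11.8% of all promoters. No promoter held overlapping matches of both. A match is a description of the letters only.

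The rule genes chose the members, so their levels are a description. Cd79a had 1 to 20 UMIs per barcode in the old library, median 6, and 2 to 15 in the young library, median 5, so the libraries overlapped widely. Its level was 1826 CPM in old and 2227 CPM in young B cell barcodes, a ratio of 0.820 (0.732 to 0.918). Cd79b stood at 622 CPM in old and 907 CPM in young ones, a ratio of 0.686 (0.567 to 0.828), and Ms4a1 at 533 and 573 CPM, a ratio of 0.930 (0.748 to 1.16). T cell and macrophage barcodes were limited to 1 UMI of these genes, so their levels there are set by the rules.

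Most B cell barcodes carried genes of naive follicular cells. Ighm (IgM) had a UMI in 75 of 75 old and 115 of 120 young ones, and Ighd (IgD) in 57 old and 86 young ones. Ighm stood at 1758 CPM in old and 1866 CPM in young ones, and Ighd at 489 CPM in old and 589 CPM in young ones. The follicular genes gave Ccr7, the chemokine receptor for T cell zones, at 858 CPM in old and 1171 CPM in young barcodes, a ratio of 0.733 (0.623 to 0.861), and Fcer2a at 332 and 231 CPM, old and young, a ratio of 1.44 (1.05 to 1.97). Fcmr was at 533 CPM in old and 507 CPM in young barcodes, and Cd55, which shields cells from complement, at 458 and 407 CPM. Of 13 follicular genes with at least 20 UMIs none differed 2-fold, beside 7.0% higher and 3.1% lower among all 4101 genes with that many UMIs. Their median log2 ratio was 0.01, beside 0.11 for all genes.

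Genes listed for other B cell states ranged from undetected to as high as follicular genes. Plac8, listed for marginal zone and B-1 cells, was at 321 CPM in old and 367 CPM in young B cell barcodes, S1pr1, a receptor of lymphocyte exit listed for marginal zone cells, at 236 and 255 CPM, and Mzb1 at 195 and 279 CPM. Vim of the B-1 list was at 390 CPM in old and 249 CPM in young ones, and Gpr183, a migration receptor of the germinal centre list, at 263 and 261 CPM. Cr2 (CD21) was at 41.0 CPM in old and 36.4 CPM in young B cell barcodes, Cd9 at 65.0 and 33.4 CPM, and Cd1d1 at 10.3 and 12.1 CPM, old and young, all from the marginal zone list. Cd9 in free RNA stood higher, at 228 CPM in the old library and 169 CPM in the young library. Among 20 B-1 cell genes Cd5 and Spn had no UMI in any of the 75 old and 120 young barcodes, which allows shares of barcodes with a UMI of up to 4.00% and 2.50%. This limits barcodes with a UMI at these depths, not cells that express the gene. The same held for Itgax (CD11c) among genes of age-associated B cells and for Rag1, Rag2, Dntt and Igll1 among genes of B cell precursors. Other members of both lists were detected. Of 24 precursor and immature genes 12 had a UMI in each library, among them Vpreb3 at 174 CPM in old and 231 CPM in young barcodes. Of 20 age-associated genes 15 had a UMI in the old and 10 in the young library. Fcgr2b, the inhibitory IgG receptor and one of the age-associated list, was at 65.0 CPM in old and 18.2 CPM in young barcodes, a ratio of 3.57 (1.37 to 10.9) on 19 and 6 UMIs. Mki67 of dividing cells had a UMI in 0 old and 2 young barcodes, and Top2a in 2 old and 5 young ones.

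Isotype was called in barcodes with at least 3 heavy chain UMIs. Ighm or Ighd led in 71 of 72 old (98.6%, 92.5 to 100.0%) and 103 of 103 young ones, and the 1 exception was an old barcode with 9 Ighg1 UMIs. A switched isotype was thus seen in 1.39% (interval up to 7.5%) of old ones, and in none of the young ones (interval up to 3.52%), which allows up to 2.91% by the limit of 3 counts. Over all members 4 of 80 old (5.00%) and 0 of 110 young were switched, where 110 allows up to 2.73%. The old ones beyond the Ighg1 barcode were all among the large members: 2 with Igha and 1 with Ighg2c. That last barcode, of 12094 UMIs, had 39 UMIs of Cd79a, 26 of Cd79b, 14 of Ms4a1, 212 of Igkc, 8 of Ighg2c and none of Ighm, and its class II share of 2.07% was like that of the B cell barcodes.

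The Igha barcodes carried the genes of antibody-secreting plasma cells. The first held 27088 UMIs, of which 13587 were Igkc, 2278 Igha and 1913 Jchain, the chain that joins IgA and IgM units. It also had 52 UMIs of Mzb1 and 13 of Xbp1, both of the secretory pathway, 8 of Sdc1 (CD138), 1 of Tnfrsf17 (BCMA), 73 of the variable gene Igkv19-93 and 31 of Ighv1-76. The second held 14527 UMIs, with 8166 of Igkc, 2216 of Igha, 618 of Jchain, 22 of Mzb1, 9 of Xbp1, 5 of Sdc1, 3 of Tnfrsf17 and 101 of Igkv1-135. Neither had a UMI of Ms4a1, Pax5 or Ebf1, and they had 55 and 82 UMIs of Cd74. The young members had no UMI of Jchain or Igha at all, against 2540 and 4506 UMIs in the old members.

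Light chain use differed in its values between the libraries, and free RNA of the old library touches it. A barcode with at least 5 light chain UMIs was called kappa where Igkc made up at least 80% of them, lambda at most 20%, and both in between. Kappa was called in 54 of 73 old (74.0%, 62.4 to 83.5%) and 67 of 117 young B cell barcodes (57.3%, 47.8 to 66.4%), lambda in 2 old (2.74%) and 6 young (5.13%), and both in 17 old (23.3%) and 44 young (37.6%). With limits of 90% and 10%, kappa was called in 49.3% of old and 35.0% of young ones, so the size of the mixed class depends on the limit. Igkc had a median of 23 UMIs per old and 14 UMIs per young barcode, and stood at 6510 and 5943 CPM, old and young, a ratio of 1.10 (1.03 to 1.17).

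The lambda genes were lower in old B cell barcodes. Iglc2 was at 369 CPM in old and 1129 CPM in young B cell barcodes, a ratio of 0.327 (0.262 to 0.406), Iglc1 at 321 and 537 CPM, a ratio of 0.599 (0.461 to 0.773), and Iglc3 at 339 and 479 CPM, a ratio of 0.706 (0.544 to 0.914). An Iglc2 UMI was in 43 of 75 old (57.3%) and 88 of 120 young barcodes (73.3%), and in 38.7% of old and 64.2% of young ones after thinning to 2000 UMIs. Its largest count was 15 in an old and 50 in a young barcode. These constant genes are close copies of each other, and how reads shared between them were counted is not given in the sources used here.

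**Figure D2:**
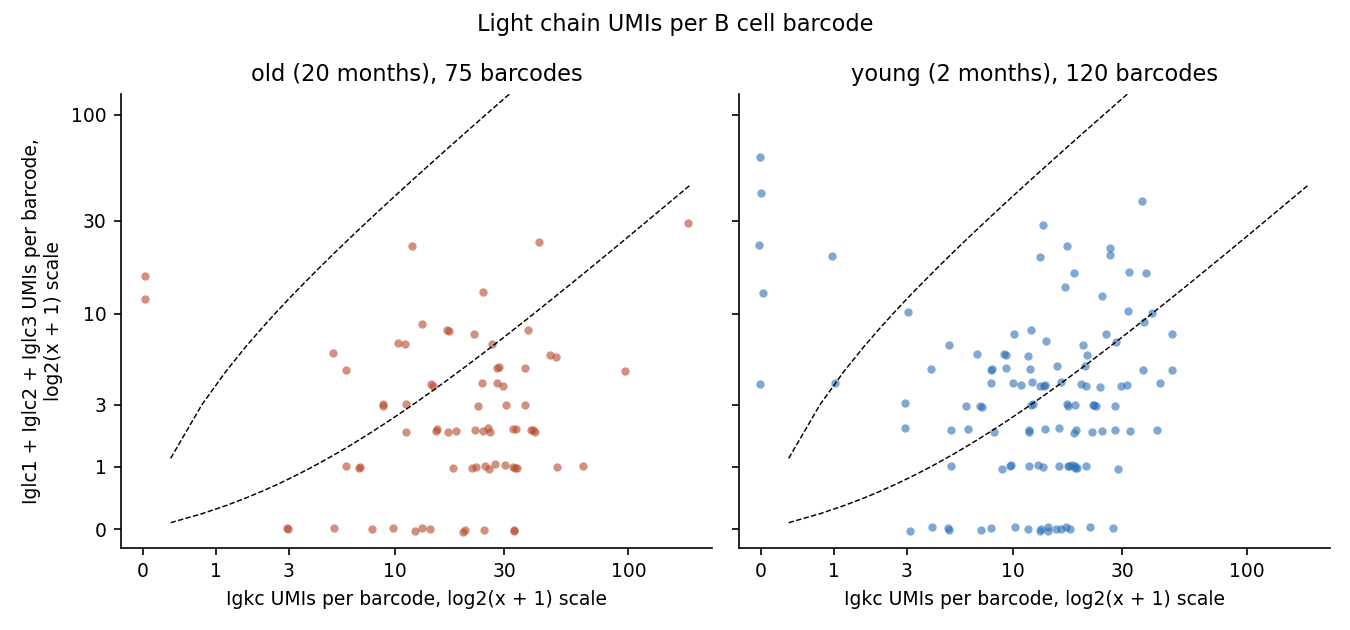
Each point is 1 B cell barcode, with Igkc UMIs on the x axis and Iglc1, Iglc2 and Iglc3 UMIs together on the y axis (both log2(x + 1) scales, points moved slightly sideways so that they can be seen), old library left and young library right. Dashed lines mark the limits of 80% and 20% kappa; 54 old and 67 young barcodes lie below the lower line with at least 5 UMIs, and 17 old and 44 young ones lie between the lines.

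Other leukocytes give the level of light chain genes in cells that should not make them. An Igkc UMI was in 54 of 99 old T cell barcodes (Cd3 genes at least 4 UMIs, 54.5%) and 0 of 62 young ones, which allows up to 4.84%, at median depths of 6278 and 4619.5 UMIs. Among macrophage barcodes (C1q genes at least 20 UMIs) it was in 160 of 379 old (42.2%) and 5 of 784 young ones (0.638%). The level was 138 CPM in old T cell barcodes, against 6510 CPM in old B cell barcodes. An Iglc2 UMI was in 2 of 99 old and 0 of 62 young T cell barcodes, and in 3 of 379 old and 2 of 784 young macrophage barcodes, so Iglc2 in B cell barcodes was far above this background in both libraries. Ighm behaved in another way, with a UMI in 203 of 379 old (53.6%) and 351 of 784 young macrophage barcodes (44.8%), at 158 and 140 CPM, against 39.2 CPM in old and 77.7 CPM in young T cell barcodes. Free RNA of at most 100 UMIs held Ighm at 77.6 CPM in the old and 19.8 CPM in the young library. Macrophage barcodes of both libraries and young T cell barcodes lay above it. The source of this Ighm RNA was not tested.

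**Figure D3:**
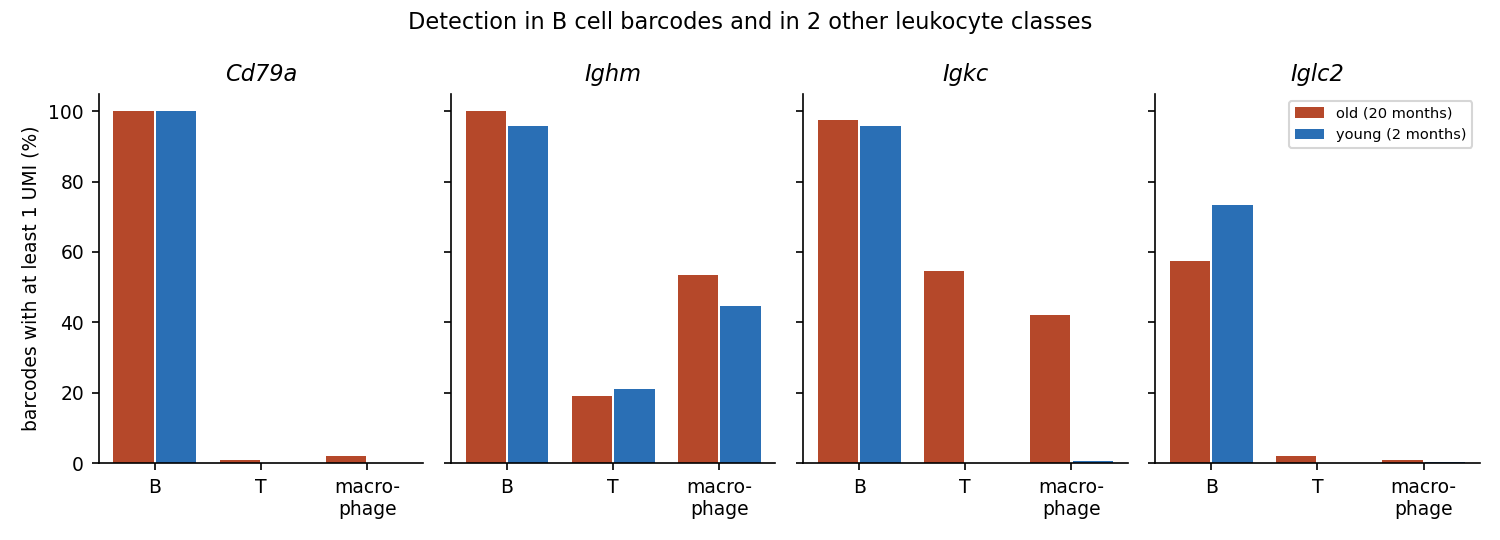
Bars give the percent of barcodes with at least 1 UMI of Cd79a, Ighm, Igkc or Iglc2 in B cell, T cell and macrophage barcodes, old library left of the young library in each pair. Cd79a helped to choose the 3 classes, so its contrast is set by the rules; Iglc2, which did not, was in 57.3% of old and 73.3% of young B cell barcodes, and Igkc was also in 54.5% of old and 0% of young T cell barcodes.

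Variable genes, which lie far from the 3' end that is read, were seen in a minority of barcodes. A heavy chain variable (Ighv) UMI was in 25 old and 25 young B cell barcodes. Their leading genes were 21 different ones in the old and 20 in the young library, and the commonest led 3 barcodes each, Ighv3-6 in the old and Ighv1-74 in the young library. A kappa variable (Igkv) UMI was in 15 barcodes of each library, with 14 different leading genes in the old and 13 in the young library. The other B cell barcodes gave no such UMI, so their variable genes are not known here.

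How common B cells were at each age depended on what they were counted against. B cell barcodes were 75 of 9783 kept old barcodes (0.767%, 0.603 to 0.960%) and 120 of 9210 kept young barcodes (1.30%, 1.08 to 1.56%), a ratio of 0.588 (0.435 to 0.792). Among barcodes of 4 leukocyte classes (B, T, macrophage and neutrophil) they were 75 of 608 among old barcodes (12.3%) and 120 of 995 among young ones (12.1%), a ratio of 1.02 (0.756 to 1.38). Set against T cell barcodes alone, they were 75 of 174 among old barcodes (43.1%) and 120 of 182 among young ones (65.9%), a ratio of 0.654 (0.483 to 0.880). Set against macrophage barcodes the ratio was 1.24 (0.920 to 1.67). Over all members the same 4 ratios were 0.567, 0.991, 0.685 and 1.20.

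The UMI minimum turned the first of these round. With at least 1000 UMIs there were 79 B cell barcodes of 21976 kept old barcodes and 124 of 10958 kept young barcodes, a ratio of 0.318 (0.236 to 0.425). With at least 3000 UMIs there were 66 of 5584 kept old barcodes and 52 of 7885 kept young barcodes, a ratio of 1.79 (1.23 to 2.63). The share among leukocyte barcodes was then 1.95 (1.34 to 2.86) times as high in the old library, while the ratio against T cell barcodes stayed below 1 at 0.872 (0.597 to 1.28). Young B cell barcodes were smaller, with most of them under 3000 UMIs, so no direction of the share is given here.

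**Figure D4:**
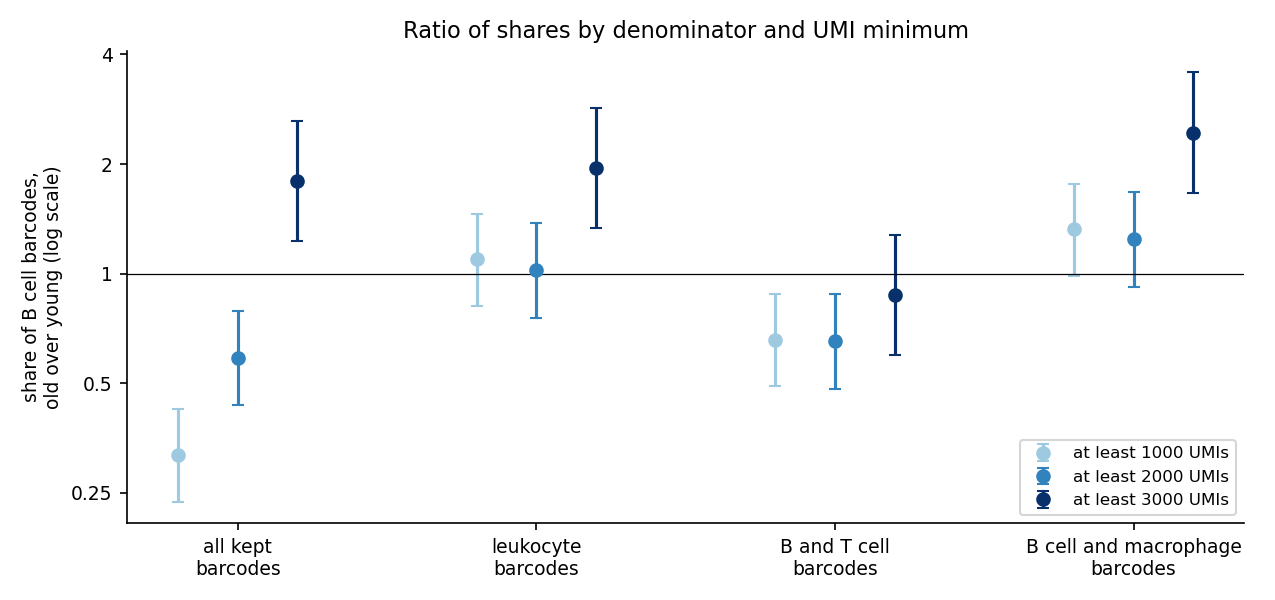
Points give the share of B cell barcodes in the old library over that in the young library (log scale) with exact 95% intervals, for 4 denominators and for UMI minimums of 1000, 2000 and 3000. Among all kept barcodes the ratio is 0.318, 0.588 and 1.79 at the 3 minimums, and among B and T cell barcodes it is below 1 at each.

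The levels of most genes in B cell barcodes lay within 2-fold of each other between the ages. Of 4101 genes with at least 20 UMIs, 7.0% were at least 2-fold higher in the old library (287 genes) and 3.1% at least 2-fold lower (127 genes). Hormone genes made up a median of 6.84% of UMIs in old and 10.5% in young B cell barcodes, Malat1, a nuclear RNA, 3.20% and 2.04%, and mitochondrial genes 3.48% and 3.56%. The part of these and of the difference in depth in the gene ratios was not tested. Genes past 2-fold are named below where the higher library had at least 20 UMIs and 50 CPM and the interval excluded 1. The level in the higher library also had to be at least 2 times that of free RNA of that library, with no such limit for the lower one. This held for 72 genes higher and 12 genes lower in the old library.

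Among genes higher in old B cell barcodes, Fnbp4 led at 106 CPM in old and 18.2 CPM in young ones, a ratio of 5.82 (2.39 to 17.1) on 31 and 6 UMIs. Dicer1, the nuclease that cuts microRNAs from their precursors, was at 85.5 CPM in old and 21.2 CPM in young ones, and Tiparp, a target of the aryl hydrocarbon receptor, at 188 and 54.6 CPM, a ratio of 3.44 (1.99 to 6.23). Abca1, which exports cholesterol, was at 113 CPM in old and 33.4 CPM in young ones. Trim56, Zfp800, Ankib1, Dop1a, Mon2, Smarcc2 (a subunit of the SWI/SNF chromatin remodeller), Secisbp2l and Parg (which removes poly-ADP-ribose) completed the 12, with log2 ratios of 1.62 to 2.36. All 12 are low genes, with 4 to 18 UMIs in the young library. Free RNA of at most 100 UMIs in the young library stood above the young B cell values of all but Ankib1, Dop1a, Secisbp2l and Parg. Its part in these ratios was not tested.

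In other leukocytes of the same libraries these 12 genes had smaller log2 ratios, and not all were above 0. In T cell barcodes Dicer1 was at 64.2 CPM in old and 16.9 CPM in young ones, Fnbp4 at 84.6 and 37.2 CPM, and Tiparp at 146 and 128 CPM. In macrophage barcodes Fnbp4 was at 63.4 CPM in old and 39.3 CPM in young ones, and Tiparp at 151 and 154 CPM. Abca1 was at 23.5 CPM in old and 23.7 CPM in young T cell barcodes. Whether any of these differences is particular to B cells was not tested.

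Among genes lower in old B cell barcodes, Cep120, a centriole protein, had 1 UMI in old and 23 UMIs in young ones, a ratio of 0.0490 (0.00119 to 0.302), while T cell barcodes had 20 UMIs in the old and 8 in the young library. Iglc2, given above, had the most UMIs of the 12. Ifi27l2a, an interferon-induced gene, was at 106 CPM in old and 303 CPM in young B cell barcodes, a ratio of 0.349 (0.226 to 0.527), and at 222 and 267 CPM in old and young T cell barcodes. Cd24a, a surface protein that is high in immature B cells, was at 123 CPM in old and 276 CPM in young ones, a ratio of 0.446 (0.294 to 0.663), with a UMI in 20 of 75 old (26.7%) and 48 of 120 young ones (40.0%). After each barcode was thinned to 2000 UMIs, Cd24a was found in 14.7% of old and 29.2% of young ones. Ifi30, the lysosomal reductase that prepares antigen for class II, was at 88.9 CPM in old and 188 CPM in young ones, and Rgcc, a regulator of the cell cycle, at 58.1 and 164 CPM. Ublcp1, S1pr4 (a sphingosine phosphate receptor of lymphocytes), Nras, Rilpl2, Fam168b and Lyar were the others, with log2 ratios of -2.02 to -1.09. Free RNA of at most 100 UMIs in the old library stood above the old B cell values of Cep120, Ublcp1, Rgcc and Nras and below those of the rest. It was close to the old values of Ifi27l2a, at 104 CPM, and Ifi30, at 88.8 CPM. Its part in these ratios was not tested. Over all members several of the named differences were smaller. The log2 ratio nearly vanished for Rgcc, at 0.0049, and was -0.22 for Ublcp1, -0.21 for Ifi30 and, among the higher genes, 0.38 for Mon2. It was -0.38 for Iglc2, with an interval of the ratio (0.645 to 0.908) that still excluded 1.

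**Figure D5:**
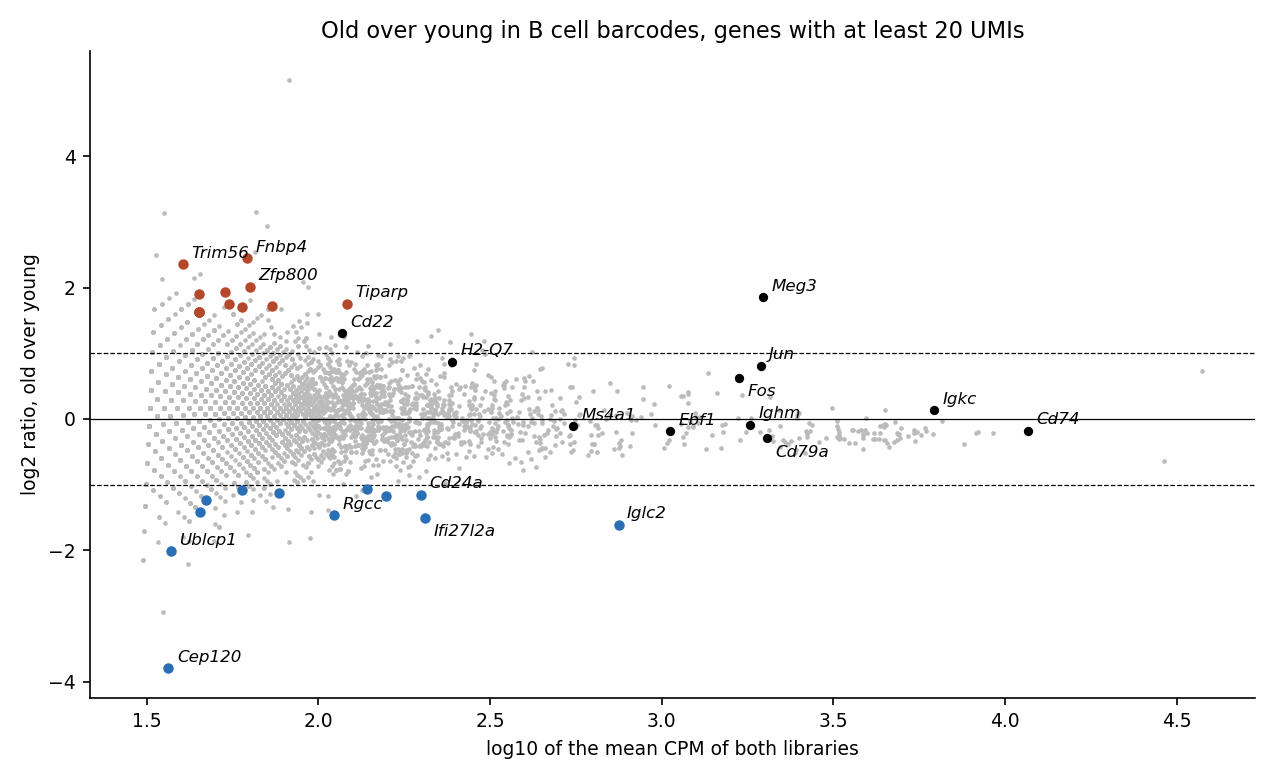
Each point is 1 of 4101 genes with at least 20 UMIs in B cell barcodes; the x axis is the log10 of the mean CPM of both libraries and the y axis the log2 ratio of old over young, with dashed lines at 2-fold. Red and blue mark the 12 genes named higher and the 12 named lower in the old library, and black marks other genes the text names; Cd74 and Igkc lie near 0 at the right, and Iglc2 lies lowest among genes of such a level.

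Receptor signalling and lineage genes were mostly within 2-fold. Among all genes 7.0% were 2-fold higher in old B cell barcodes and 3.1% lower, with a median log2 ratio of 0.11. Of 28 tested receptor signalling genes 2 were higher and none lower, with a median of 0.17. The higher ones were Cd22, an inhibitory coreceptor, at 168 CPM in old and 66.7 CPM in young barcodes (ratio 2.51, 1.49 to 4.36), and Fcgr2b. Ptprc was at 564 CPM in old and 331 CPM in young ones, a ratio of 1.71 (1.33 to 2.19), Syk at 222 and 191 CPM, and Bcl10, an adaptor on the way to NF-kB, at 171 and 252 CPM. Among 31 tested B lineage transcription factors 2 were higher and none lower: Notch2, at 75.2 CPM in old and 27.3 CPM in young ones, and Zbtb20 at 561 and 276 CPM, a ratio of 2.03 (1.56 to 2.65). Free RNA held Notch2 at 59.8 CPM in the old and 50.3 CPM in the young library. It held Zbtb20 at 300 and 491 CPM, old and young, so the young B cell values of both genes lay below it. The part of free RNA in these ratios was not tested. Ebf1 (988 and 1126 CPM, old and young), Pax5, Klf2 (1829 and 1820 CPM), which keeps lymphocytes in circulation, Foxp1 (725 and 689 CPM) and Mef2c (814 and 768 CPM) were within 2-fold. Prdm1, the factor of plasma cells, had no UMI in a B cell barcode.

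Antigen presentation genes of class II were within 2-fold with 2 exceptions, and those of class I had a median log2 ratio of 0.21. Cd74, the class II chaperone, was at 10945 CPM in old and 12378 CPM in young barcodes, a ratio of 0.884 (0.844 to 0.926), and H2-Aa at 4349 and 4584 CPM, old and young, but class II genes were used for the split. The exceptions were Ifi30 and Ciita. Ciita, the factor that switches class II genes on, was at 95.7 CPM in old and 45.5 CPM in young ones on 28 and 15 UMIs. Among 18 tested class I genes 2 were 2-fold higher in old barcodes (H2-Q4 and H2-T22) and none lower, beside 7.0% and 3.1% of all genes. The H2-Q genes are close copies, so reads may be split among them. B2m, the light chain of class I, was at 1351 CPM in old and 1035 CPM in young ones, a ratio of 1.31 (1.13 to 1.51), H2-K1 at 1275 and 1001 CPM, and H2-D1 at 1292 and 1013 CPM. H2-Q7, a non-classical gene, was at 318 CPM in old and 173 CPM in young ones, a ratio of 1.84 (1.31 to 2.60). Free RNA also held more of these in the old library, with B2m at 1154 CPM there and 663 CPM in the young library, and its part in the class I values was not tested.

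Activation genes differed by gene. Among 34 immediate early genes, 31 were tested, 23 had a log2 ratio above 0, none was 2-fold different and the median was 0.37. Over all members that median was 0.014. Jun was at 2476 CPM in old and 1411 CPM in young barcodes, a ratio of 1.75 (1.56 to 1.98), and Fos at 2038 and 1317 CPM, a ratio of 1.55 (1.37 to 1.76). Jund was at 3960 CPM in old and 3929 CPM in young ones, a ratio of 1.01 (0.930 to 1.09). These genes answer to tissue dissociation as well as to stimulation, and free RNA held Fos at 4111 CPM in the old library and 5050 CPM in the young library, above the B cell barcodes. Cd83, a marker of activated B cells, was at 1026 CPM in old and 734 CPM in young ones, a ratio of 1.40 (1.18 to 1.66). Cd69, another early activation marker, was at 386 CPM in old and 498 CPM in young ones, a ratio of 0.777 (0.606 to 0.993). Rel, the NF-kB subunit most used in B cells, was at 1292 CPM in old and 1095 CPM in young ones.

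Survival genes gave Bcl2 at 109 CPM in old and 57.6 CPM in young barcodes and Bax, which promotes cell death, at 58.1 and 115 CPM, ratios of 1.90 (1.04 to 3.54) and 0.504 (0.267 to 0.915). These rest on 32 old and 19 young UMIs of Bcl2 and on 17 and 38 of Bax. Free RNA held Bcl2 at 32.6 and 20.8 CPM, old and young, and Bax at 119 and 125 CPM, above its B cell values. The part of free RNA in these ratios was not tested. Of the 11 tested survival genes 1 was 2-fold higher and none lower, Bcl2a1b at 137 CPM in old and 63.7 CPM in young ones. Interferon response genes went in both directions: of 17 tested, 2 were 2-fold higher in old barcodes and 3 lower (Ifi27l2a, Bst2 and Isg20), beside 7.0% higher and 3.1% lower of all genes, with a median log2 ratio of -0.19. Ly6e, the most abundant of them, was at 1446 CPM in old and 1544 CPM in young ones. Migration genes held Cxcr5 at 150 CPM in old and 164 CPM in young ones, and Cxcr4 at 239 and 221 CPM. Of 21 tested migration genes 1 was 2-fold higher, the integrin chain Itgb1 with 35 UMIs in old and 12 UMIs in young ones, and 1 lower, S1pr4.

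Other lists had few genes past 2-fold, beside 7.0% higher and 3.1% lower of all genes. Of 7 tested precursor and immature genes 2 were higher in old barcodes (Ptpra and Sox4) and 1 lower (Cd24a), of 8 tested marginal zone genes 2 were higher (Dtx1 and Notch2), and of 5 tested stem cell and glial markers 2 were lower (Gstm1 and Lcn2). Of 19 tested NF-kB genes 2 were 2-fold higher in old barcodes (Nfkbiz and Bcl2a1b) and 1 lower, the chemokine gene Ccl4, with 12 UMIs in old and 49 UMIs in young ones. Of 18 tested costimulation genes 2 were higher (Bcl2a1b and Il4ra) and none lower, and of 9 tested Toll-like receptor genes 1 was higher (Irak1) and 1 lower (Irf5). Of 11 tested plasma cell genes 1 was lower (Edem1), and of 10 tested cell cycle genes none differed 2-fold. Of 23 tested B cell markers outside the rule 1 was higher (Cd22) and 2 were lower (Cd24a and Iglc2), with a median log2 ratio of 0.07.

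Genes of protein making and energy were nearly all within 2-fold. Among all genes 7.0% were 2-fold higher and 3.1% lower in old barcodes, with a median log2 ratio of 0.11. Of 87 ribosomal protein genes 14 had a log2 ratio above 0 and none was 2-fold different, with a median of -0.23. Of 58 tested nuclear genes of the respiratory chain 13 were above 0 and 2 were 2-fold lower in old barcodes (Ndufc1 and Ndufs6), with a median of -0.25. Cox4i1 was at 609 CPM in old and 840 CPM in young ones, a ratio of 0.724 (0.597 to 0.877). Free RNA held Cox4i1 at 1394.5 CPM in the old and 1274 CPM in the young library, above the B cell barcodes, and its part was not tested. Heat shock genes had a median of -0.14 (0.075 once free RNA of at most 100 UMIs was subtracted) and 1 of 17 tested was 2-fold lower (Chordc1), with Hsp90ab1 at 2058 CPM in old and 2858 CPM in young ones, a ratio of 0.720 (0.649 to 0.799), and Hspa8 at 1891 and 2533 CPM.

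RNA of other cell types was present in B cell barcodes, most of it from hormone genes, which made up 3.68 to 18.7% of UMIs in old and 4.29 to 34.1% in young ones. Gh alone stood at 66980 CPM in old and 127590 CPM in young ones, below its 476430 and 791830 CPM in free RNA of the old and young libraries. The rule itself limited the Cd3 and C1q genes, so their low counts are no finding. Of 21 T cell markers 6 were detected in each library. The most abundant was Cd2, at 226 CPM in old and 200 CPM in young B cell barcodes. It had a UMI in 49.3% of old and 35.0% of young ones. Free RNA held Cd2 lower, at 17.6 CPM in the old and 3.69 CPM in the young library, and Cd2 is not counted here as RNA of T cells. Trbc2, which the rule did not use, was at 0 in both libraries. The summed macrophage markers, C1q genes included, had a median of 0.0634% of UMIs in old barcodes (range 0 to 0.328%) and 0.0342% in young ones (0 to 0.969%), with Mrc1 and Cd163 at 0. Endocrine markers had a median of 0.529% in old (0.275 to 3.25%) and 0.403% in young barcodes (0.0860 to 3.44%). Of their 13 tested genes 3 were 2-fold higher in old barcodes, beside 7.0% of all genes: Meg3, an imprinted noncoding RNA, at 3088 CPM in old and 852 CPM in young ones, Pcsk2, a prohormone convertase, at 120 and 12.1 CPM, and Chga at 168 and 69.8 CPM. Free RNA held Pcsk2 at 153 CPM in the old and 42.9 CPM in the young library and Chga at 510 and 202 CPM, above the B cell barcodes. It held Meg3 at 2852 CPM in the old and 3556 CPM in the young library. The part of free RNA in these ratios was not tested. Single old barcodes weighed on all 3 genes. One of 9746 UMIs held 222 of the 903 Meg3 UMIs, and without it the ratio was 2.81 (2.44 to 3.24). One of 9658 UMIs, the old B cell barcode with the lowest class II share, held 19 of 35 Pcsk2 and 18 of 49 Chga UMIs. Without it the ratio was 4.63 (1.49 to 19.0) for Pcsk2 and 1.56 (0.880 to 2.80) for Chga, which is then under 2-fold. In old T cell barcodes Meg3 was at 1725 CPM and in young ones at 1173 CPM.

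Over all members most of the genes named by the same rule were other ones, and for several of them 1 or 2 barcodes held most UMIs. Of 8412 genes with at least 20 UMIs, 3.82% were 2-fold higher in the old library (321 genes) and 5.02% 2-fold lower (422 genes); when CPM was taken over all UMIs, hormones included, 865 were higher and 164 lower, and the median log2 ratio of all genes moved by 0.36. Igkc stood at 37011 CPM in old and 2324 CPM in young members, Cck at 293 and 1.11 CPM and Chga at 1714 and 138 CPM. Of 24035 Igkc UMIs in old members the plasma cell barcodes held 13587 and 8166, and of 190 Cck UMIs 1 barcode held 188. Igkc in B cell barcodes had a ratio of only 1.10.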

How the data were processed

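The members, kinds and gene lists were chosen with earlier results of these data known. Per the labels' protocols, droplet libraries (3' v3.1 chemistry) were made from 10 pooled glands per age. The deposited matrices hold raw UMI counts for all barcodes, which the authors made with Cell Ranger 6.0.2 on build GRCm39, per the submitters' processing notes; the matrix header names version 4, per the file headers. Promoters come from a RefSeq table of another build (GRCm38.p6), matched by symbol.

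From these counts, barcodes were kept by the limits given above, and UMIs were summed per library. CPM left out the hormone and mitochondrial genes. The old value was divided by the young one, with intervals from the exact conditional test for Poisson counts. Shares have exact Clopper-Pearson intervals, and a count of 0 is given with the limit that 3 counts set. Log2 ratios have 0.5 UMI added. Genes with at least 20 UMIs in both libraries together count as tested, in the sense of measured. T cell, macrophage and neutrophil barcodes (S100a8 and S100a9 at least 50 UMIs) had at most 1 rule UMI; cells were not clustered, and those classes were not compared for their own sake. Named genes are the 12 highest and 12 lowest by the rule in the text (free RNA being barcodes of at most 100 UMIs and, separately, of 500 to 900 UMIs), without ribosomal, haemoglobin, variable or unnamed genes, 20 leading genes, all rule and constant genes, and up to 6 of the most abundant of each list; other genes named were chosen after their values were seen, and some genes that meet these rules are not reported here. Doublets were left in; as an alternative, the highest Scrublet scores (scanpy 1.11.5) were removed at 0.8% per 1000 barcodes, 766 old (7.83%) and 679 young (7.37%), since its own threshold called 0.0307% and 0.0%. Sums, ratios and intervals (Python 3.11.15, numpy 2.4.6, scipy 1.17.1) were tested on simulated data. Other alternatives were UMI, gene, mitochondrial and rule limits, free RNA subtracted, CPM over all UMIs, mean over cells and thinning to 2000 UMIs; the B cell barcodes and their alternatives were added after the data were seen.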

Additional observations from a re-analysis of the deposited data

Results flagged for a closer look

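Immunoglobulin RNA stood out in barcodes too small to be kept. Among old barcodes with 100 UMIs or fewer, Igkc was at 3107 CPM, against 28.6 CPM among young ones. Igha was at 517 CPM there, against 0.923 CPM in the young library, and Iglc1 at 153 CPM, against 6.92 CPM. Jchain was at 211 CPM and Ighg2b at 80.4 CPM in the old library, and both had no UMI in such barcodes of the young library. These are genes of antibody-secreting cells, and of the 4506 Igha UMIs in old members the 2 plasma cell barcodes held 2278 and 2216. Whether the small barcodes took this RNA from such cells was not tested.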

How the results depend on the processing

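No paired analysis was possible because each age is 1 library. No library could be left out for the same reason. Values here are over all members unless the B cell barcodes are named. At a minimum of 1000 UMIs the share ratio among kept barcodes was 0.303. At 3000 UMIs it was 1.34 (B cell barcodes 1.79), among leukocytes 1.47 and against macrophages 1.81, with medians of 0.77 for B cell markers, 0.88 for class II genes and a log2 ratio of 0.013 for Iglc2. With members of at most 10% hormone UMIs the share ratio was 1.23 among kept barcodes (B cell barcodes 1.20), 2.01 among leukocytes, 0.896 against T cells and 2.44 against macrophages, and the immediate early median was 0.24. Old-higher genes numbered 191 with at least 8 rule UMIs and 627 by the mean over cells. Higher and lower genes numbered 865 and 164 with CPM over all UMIs, 3257 and 1106 with free RNA of at most 100 UMIs subtracted, 2870 and 1553 with free RNA of 500 to 900 UMIs, 197 and 114 after thinning, 629 and 775 from 10 UMIs, and 102 and 122 from 50 UMIs; the B cell barcodes had 127 lower. With CPM over all UMIs the medians were 0.37 (immediate early), -0.16 (heat shock) and 0.030 (respiratory chain), and after thinning heat shock was -0.20. With free RNA of at most 100 UMIs subtracted they were -0.42 (B cell markers), -0.25 (transcription factors), -0.69 (class II) and -0.59 (migration), and with that of 500 to 900 UMIs -0.35, -0.65 and -0.48 for markers, class II and migration and -0.36 for immediate early genes. In B cell barcodes the higher and lower genes numbered 158 and 101 after thinning, 533 and 244 or 493 and 273 with free RNA of the first or the second kind subtracted, 785 and 360 from 10 UMIs and 53 and 17 from 50 UMIs, against 287 and 127. There immediate early and heat shock medians were 0.37 and -0.14. With 90% and 10% limits kappa was 52.4% in old and 34.7% in young members. The causes were not tested. In the B cell barcodes all 24 named genes kept their sign in the 14 to 19 settings that gave each a value; over all members Mon2, Ublcp1, Iglc2, Rgcc and Ifi30 did not. Depth limits the low genes most: those named have as few as 20 UMIs in the higher library.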
